A study of Homo sapiens with 52 samples.

Results

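Knockdown of NRP1 with the small interfering RNA (siRNA) siNRP1#5 in SUM159PT cells was compared with a non-targeting siRNA (siNT), using every sample the labels give for either treatment: 2 siNRP1#5 samples (replicates 2 and 3) and 3 siNT samples (replicates 1 to 3), 5 of the 52 samples of the series. SUM159PT is an established triple-negative breast cancer cell line of the claudin-low kind, a subtype with low epithelial adhesion genes. The series profiled claudin-low lines by bulk RNA sequencing after knockdown of NRP1 by siRNA or by short-hairpin RNA (shRNA). In both groups used here the siRNA was given at 20 nM and RNA was taken after 72 h. siNRP1#5 is directed at both the transmembrane and the soluble NRP1 transcripts, whereas siNRP1#3, used below as a second siRNA (3 samples), is directed at the transmembrane form. The hairpin shNRP1#5 carries the same targeting sequence as siNRP1#5, and its samples (3) and those of its control shNT (3) share no library with the siRNA samples. The labels give replicates only as numbers, and the paper calls them independent biological replicates. For the hairpin experiments it states that the replicates were successive passages of the cells. It states that 2 outlier samples of the series were removed in quality control, and its sample list holds no siNRP1#5 replicate 1 for SUM159PT. What that replicate would have shown is not known. P-values rest on the spread within the groups of all 17 SUM159PT samples, which may be partly technical. The hairpin groups are part of that spread, and their passages are treated as independent.

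Neuropilin 1 (NRP1) is a single-pass membrane glycoprotein with a short cytoplasmic tail that acts as a co-receptor. It binds class 3 semaphorins and some forms of VEGF, and it joins plexins, VEGF receptors, integrins and receptors of the TGF-beta and other growth factor families. Truncated transcripts give soluble forms that keep the ligand-binding part and lack the membrane anchor. An siRNA works when its antisense strand, loaded on an Argonaute protein, pairs along its whole length with a transcript and directs its cleavage. The 5′ end of that strand can also pair with other transcripts over a short stretch, as the seed of a microRNA does.

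The siRNA site is shown because the position of this sequence decides which NRP1 transcripts can be cut. The sequence of 19 bases lay on the minus strand at chr10:33263779-33263797 (GRCh38), within the coding part of exon 4 of NRP1, and 9 of the 14 annotated NRP1 transcripts contained it. In the window below, given on the strand of the NRP1 mRNA, the capitals mark the site. In the antisense strand, the capitals mark bases 2 to 8, and the matching 7 bases in a transcript read GCACTTA.
NRP1 site: cccaaCAGCCTTGAATGCACTTATattgtc
antisense strand: aTAAGTGCattcaaggctg

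Total estimated counts were 45642485, 47781184 and 39908435 in siNT and 40395459 and 59470456 in siNRP1#5. Correlations of log2 CPM were 0.958 to 0.979 among siNT samples, 0.952 between the siNRP1#5 samples and 0.929 to 0.955 between the groups. Claudin-low markers were mixed, and they do not tell SUM159PT from other claudin-low lines. VIM, a mesenchymal filament, was at 2304 to 3739 TPM and CLDN3 at no more than 0.1 TPM. CLDN4 reached 12.1 TPM, and ERBB2, the HER2 gene, was at 11.5 to 35.4 TPM. CD3E, a T cell gene, was at 0 in every sample, and PTPRC, a leukocyte gene, at 0.47 to 4.68 TPM. In the siNRP1#5 samples, 33 genes of MDA-MB-231 controls not found in SUM159PT controls were at 0.0702% and 0.156% of the MDA-MB-231 level. For 27 such genes of HS578T the values were 0.0090% and 0.0640%. siNT replicate 2 stood apart for inflammatory genes. Its LIF level was 142 CPM, against 11.5 and 5.61 CPM in the other siNT samples.

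NRP1 itself fell in both siNRP1#5 samples. Its level was 252.6, 150.5 and 237.2 CPM in the siNT samples and 7.5 and 13.9 CPM in the siNRP1#5 samples. Both siNRP1#5 samples lay far below every siNT sample. The log2 fold change was -4.31 (SE 0.40, adjusted p = 2.2e-05, edgeR quasi-likelihood test over 20067 genes). With siNRP1#3, whose comparison uses the same siNT samples, NRP1 changed by -2.10 on the log2 scale, and siNRP1#5 was lower than siNRP1#3 when they were tested directly (adjusted p = 0.00042).

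Both forms of the transcript were low. The summed transmembrane transcripts were at 49.1, 24.9 and 45.8 TPM in siNT and at 0.99 and 2.17 TPM in siNRP1#5, 3.96% of the siNT mean. The summed soluble transcripts were at 8.43, 1.77 and 10.95 TPM in siNT and at 0.11 and 0.66 TPM in siNRP1#5, 5.46% of the siNT mean. For neither form did the groups overlap. On the log2(TPM + 0.1) scale the differences were -4.61 for the transmembrane and -3.81 for the soluble form, with two-sided exact permutation p = 0.1 and 0.2; 0.1 is the smallest value that 3 against 2 samples can give. The leading transcript, NRP1-206, a transmembrane form, was at 42.4, 20.4 and 38.0 TPM in siNT and at 0.73 and 2.07 TPM in siNRP1#5. The leading soluble transcript, NRP1-204, was at 5.96, 1.02 and 8.64 TPM in siNT and at 0.04 and 0.20 TPM in siNRP1#5. NRP1-209, counted with neither form, was at 8.8, 7.04 and 14.6 TPM in siNT and was listed at 0 in both siNRP1#5 samples. Values of single transcripts are estimates by the counting program, which shares out reads that fit several transcripts.

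**Figure D1:**
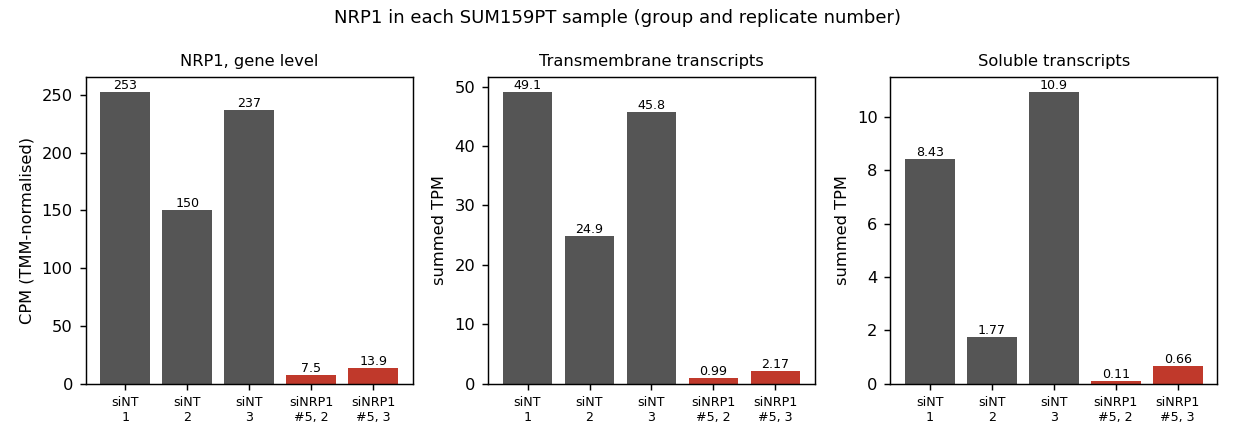
NRP1 in the 5 SUM159PT samples, as gene level (CPM) and as the summed transmembrane and soluble transcripts (TPM), one bar per sample. The siNRP1#5 bars are lower than all siNT bars for the gene and for both forms.

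Across all genes, 3590 of 20067 passed an adjusted p of 0.05 (17.9%), with 1806 higher (9.0%) and 1784 lower (8.89%) in siNRP1#5. Of these, 1688 of the higher genes had both siNRP1#5 samples above all siNT samples, and 1738 of the lower genes had both below. Genes past the threshold tend to separate in this way, and the share over all genes is not given here. These counts therefore add no support to the calls. A change of at least 2-fold was reached by 1110 of the higher and 1501 of the lower genes, and one of at least 4-fold by 242 and 548. The median log2 fold change of all genes was 0.00715. The count rested on the other SUM159PT samples, which share the estimate of spread: a fit of these 5 samples alone called 59 of 17752 genes (24 higher, 35 lower), and a fit of the siRNA samples alone called 1369. Without siNT replicate 1 it fell to 2200. The 2 siNRP1#5 samples were at least 2-fold apart for 776 of the called genes (21.6%).

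**Figure D2:**
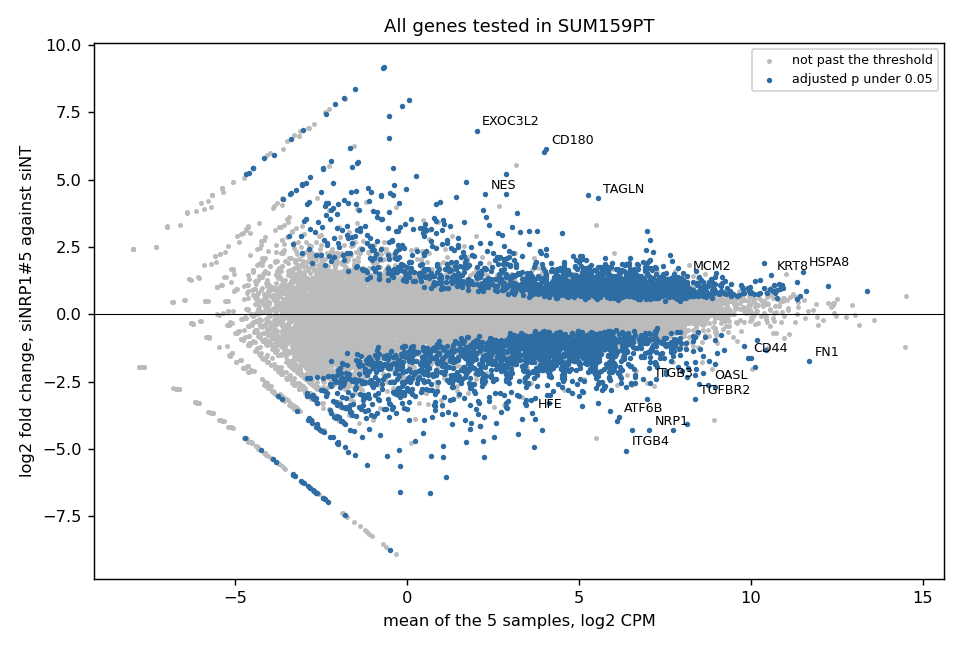
Each gene tested in SUM159PT, with the log2 fold change of siNRP1#5 over siNT on the vertical axis and the mean log2 CPM on the horizontal axis. Genes past the adjusted p of 0.05 are coloured, genes with no count in these samples are left out, NRP1 lies among the lowest of the well-expressed genes, and rises and falls are about equally many.

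Among genes with large falls, several encode surface and adhesion proteins. ITGB4, the integrin beta subunit of hemidesmosomes, was at 197, 91.4 and 119 CPM in siNT and at 6.29 and 1.92 CPM in siNRP1#5. Both siNRP1#5 samples were well below the lowest siNT sample, with a log2 fold change of -5.07 (SE 0.77, adjusted p = 9.54e-04). FAT2, a large protocadherin, was at 9.08, 1.75 and 12.6 CPM in siNT and at 0.0635 and 0.297 CPM in siNRP1#5 (log2 -5.31), although siNT replicate 2 was nearer to the siNRP1#5 samples than the other siNT samples were. CEMIP, which binds hyaluronan, was at 65.9, 352 and 35.1 CPM in siNT and at 9.97 and 5.27 CPM in siNRP1#5 (log2 -4.31). Genes of other kinds fell too. ATF6B, a membrane-bound transcription factor of the unfolded protein response, was at 134, 100 and 108 CPM in siNT and at 6.00 and 9.91 CPM in siNRP1#5, with a log2 fold change of -3.83 (SE 0.31, adjusted p = 8.7e-06). The groups were tight and did not overlap. HCAR3, a surface receptor for hydroxycarboxylic acids, was at 4.62, 5.54 and 5.96 CPM in siNT and at 0.222 and 0.178 CPM in siNRP1#5 (log2 -4.74). HMGB1P1 (log2 -4.69), listed as protein coding, is a near-copy of HMGB1, and ANXA8L1 (log2 -4.94) a near-copy of ANXA8 (log2 -3.95), so reads of these could be assigned to a related gene and their values are uncertain. Some large falls depended on single libraries: IL36RN (-4.56), S100A8 (-4.31), CXCL1 (-4.29) and EGR3 (-4.24) were highest in siNT replicate 2, and without that sample their log2 changes were -2.85, -3.75, -1.71 and -2.20, none past the threshold. Without siNRP1#5 replicate 3 they were -3.49, -3.54, -3.54 and -3.76, and HMGB1P1 was -4.08, none past the threshold. S100A8, CXCL1 and EGR3 also missed it without siNRP1#5 replicate 2 (-6.05, -5.70 and -4.84), and IL36RN and S100A8 without siNT replicate 1 (-4.89 and -4.37).

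Among genes of at least 5 CPM in the higher group, the largest rises began from very low levels in siNT. NES, which encodes the filament nestin, was at 0.426, 0.526 and 0.576 CPM in siNT and at 10.9 and 11.7 CPM in siNRP1#5. The siNRP1#5 samples were alike, and the log2 fold change was 4.47 (SE 0.53, adjusted p = 0.000155). TAGLN, an actin-binding protein of contractile cells, was at 1.88, 5.35 and 9.14 CPM in siNT and at 138 and 78.2 CPM in siNRP1#5 (log2 4.31). PDGFB, a growth factor, was at 0.875, 0.574 and 1.28 CPM in siNT and at 8.38 and 13.6 CPM in siNRP1#5 (log2 3.60). For TAGLN and PDGFB all siNRP1#5 samples lay above all siNT samples. H19, an imprinted long noncoding RNA, was at 0.292, 0.311 and 1.18 CPM in siNT and at 16.3 and 61.0 CPM in siNRP1#5 (log2 6.03), and EXOC3L2 was at 0.112, 0.119 and 0.025 CPM against 6.10 and 14 CPM (log2 6.82). The siNRP1#5 samples were uneven for several of the others. CD180, a Toll-like receptor relative, was at 1.78 CPM in replicate 2 and 78.5 CPM in replicate 3, against 0.292, 0.0239 and 1.43 CPM in siNT (log2 6.12). LSP1, an actin-binding protein of leukocytes that has a near-copy, was at 34.9 and 146 CPM against 4.51, 1.65 and 6.51 CPM (log2 4.42). CCBE1 was at 3.65 and 37.8 CPM against 1.19, 0.574 and 2.81 CPM (log2 3.77), and KCNH2, a potassium channel subunit, at 1.94 and 11.9 CPM against 0.561, 0.86 and 0.501 CPM (log2 3.43). Without siNRP1#5 replicate 3, CD180 changed by 1.61, EPHB3 by 2.21, FLNC by 3.28, CCBE1 by 1.26 and KCNH2 by 1.59 on the log2 scale, and none of these passed the threshold. In bulk RNA, fewer cells making a gene and less RNA per cell cannot be told apart.

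**Figure D3:**
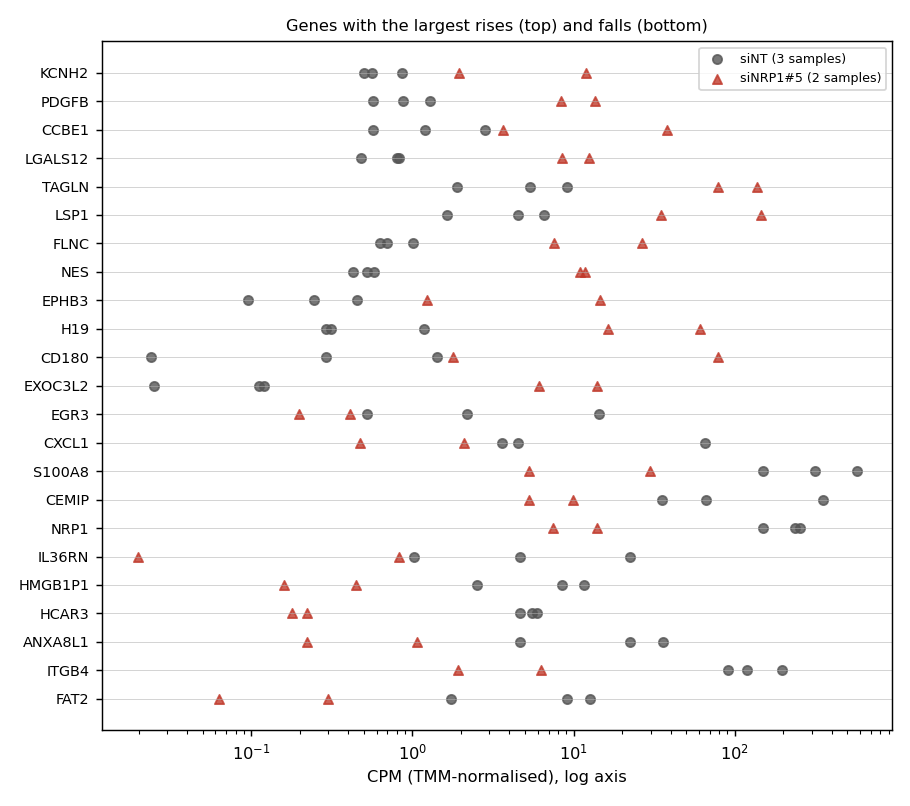
CPM on a log axis of genes named for the largest rises and falls (at least 5 CPM in the higher group), one point per sample with siNT as circles and siNRP1#5 as triangles. For FAT2, ITGB4 and HCAR3 the siNRP1#5 points lie below all siNT points, and for NES, TAGLN and PDGFB above them.

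Of 18 tested receptors and adaptors that work with neuropilins, 5 fell and 1 rose, beside 8.89% of all genes called lower and 9.0% higher. TGFBR2, the TGF-beta receptor subunit that binds ligand, was at 554, 353 and 627 CPM in siNT and at 42.7 and 71.9 CPM in siNRP1#5. Both siNRP1#5 samples lay far below every siNT sample (log2 -3.16, SE 0.34, adjusted p = 7.7e-05). EGFR, the EGF receptor, fell with a log2 change of -1.33, IGF1R, the IGF1 receptor, of -1.06, and the plexins PLXNA1 and PLXNA3, semaphorin receptors, of -0.96 and -1.16. GIPC1, an adaptor that binds the cytoplasmic tail of NRP1, was at 152, 153 and 170 CPM in siNT and at 332.3 and 350.5 CPM in siNRP1#5 (log2 1.11, adjusted p = 0.000626). NRP2, the paralog of NRP1, had a log2 value of -0.76 that did not pass (adjusted p = 0.20). Of 14 ligand genes 2 fell, a share near that over all genes: SEMA3C, a class 3 semaphorin, changed by -1.86 and VEGFA by -0.98. The list medians were -0.59 and -0.02 against 0.00715 for all genes. Without siNRP1#5 replicate 2, 2 co-receptor genes fell rather than 5, without siNT replicate 1 also 2, 2 co-receptor genes rose without siNRP1#5 replicate 2, 1 ligand gene rose without siNT replicate 1, and 1 ligand gene fell without siNT replicate 2. EGFR missed the threshold without siNRP1#5 replicate 2 or siNT replicate 1 (-1.21 each), PLXNA3 without siNRP1#5 replicate 3 (-1.09), and VEGFA without siNRP1#5 replicate 3 (-0.76) or siNT replicate 2 (-0.63).

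Of 17 tested genes of integrins and of the laminin that hemidesmosomes bind, 7 fell, ITGB4 among them, 0 rose and 10 did not pass, with a median of -1.21 beside 8.89% of all genes called lower. ITGB3, the partner of the integrin alpha V subunit, was at 218, 235 and 148 CPM in siNT and at 35.4 and 33.7 CPM in siNRP1#5, with no overlap and a log2 change of -2.54 (SE 0.33, adjusted p = 0.0003). ITGA2, part of a collagen receptor, changed by -1.94 and ITGB8 by -1.62. Of 19 collagen genes 8 fell and 1 rose, with a median of -0.79, beside the same 8.89% lower and 9.0% higher over all genes. COL7A1, the anchoring fibril collagen that binds under hemidesmosomes, was at 166, 396 and 113 CPM in siNT and at 60.3 and 25.8 CPM in siNRP1#5 (log2 -2.39). COL4A5 and COL4A2, of basement membrane collagen, changed by -1.95 and -1.63. COL1A2, a fibrillar collagen, was the gene that rose (log2 1.86), from levels of 0.601 to 1.27 CPM in siNT to 0.953 and 5.51 CPM in siNRP1#5. Its groups overlapped, as siNRP1#5 replicate 2 lay within the siNT range. The collagen count was 4 without siNRP1#5 replicate 2. ITGB8 missed the threshold without siNRP1#5 replicate 2 (-1.04), siNT replicate 1 (-1.57) or siNT replicate 3 (-1.54). COL7A1 missed it without siNRP1#5 replicate 3 (-1.90), and COL4A2 in 4 of the 5 fits that leave out 1 of these samples (-1.72 to -1.27), all but that without siNT replicate 3. COL1A2 was at 0.08 without siNRP1#5 replicate 3 and missed it without siNT replicate 1 (1.80) or 3 (1.62).

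Markers of the epithelial and mesenchymal states moved in few members. FN1, fibronectin, fell with a log2 change of -1.75, from 5978, 4284 and 3538 CPM in siNT to 1230 and 1498 CPM in siNRP1#5, and CD44, a hyaluronan receptor, fell with -1.62. Both were lower in every siNRP1#5 sample than in any siNT sample. SNAI1, a repressor of epithelial genes, rose (log2 0.94), so 2 of 16 mesenchymal genes fell and 1 rose, shares near the 8.89% and 9.0% over all genes. With siNRP1#5 replicate 3 left out, 4 fell and 0 rose. SNAI1 missed the threshold in 4 of the 5 fits that leave out 1 sample (0.83 to 1.02), all but that without siNT replicate 2. Of 12 tested epithelial genes 3 rose, beside 9.0% of all genes. CLDN4, a claudin of tight junctions, was at 2.29, 2.20 and 2.76 CPM in siNT and at 6.96 and 20.8 CPM in siNRP1#5, with no overlap and a log2 change of 2.52 (SE 0.42, adjusted p = 0.00125). KRT8 and KRT18, partner keratins of simple epithelia, changed by 1.46 and 1.12. These are separate gene levels in cells whose CDH1, the epithelial cadherin, was at 0.27 TPM or less in every sample.

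Interferon-stimulated genes formed the list with the most falls. Of 29 tested, 19 fell and 0 rose, with a median of -1.56, beside 8.89% of all genes called lower. STAT2, which is part of the factor that drives these genes, was at 73.0, 90.5 and 76.1 CPM in siNT and at 11.2 and 14.2 CPM in siNRP1#5, with tight groups and a log2 change of -2.65 (SE 0.35, adjusted p = 0.000292). OAS1, a sensor of double-stranded RNA, was at 10.6, 7.86 and 16.3 CPM in siNT and at 0.889 and 1.21 CPM in siNRP1#5 (log2 -3.45). RIGI, a receptor for viral RNA, and IFIT2 changed by -2.84 and -2.69. The number that fell was 17, 10, 14, 19 and 18 with siNRP1#5 replicate 2, siNRP1#5 replicate 3, siNT replicate 1, siNT replicate 2 or siNT replicate 3 left out. IFIT2 was at -2.19 without siNRP1#5 replicate 3 and HLA-F, of the next list, at -2.0, neither past the threshold. Against siNRP1#3, 13 of these genes were lower in siNRP1#5. In the list of MHC class I and antigen processing genes 6 of 16 fell, beside the same 8.89%, including HLA-F, HLA-E, the peptide-trimming enzyme ERAP1 and TAPBP, with log2 changes of -2.54, -1.73, -1.77 and -1.76, and 1 rose. CD274, which encodes the checkpoint ligand PD-L1, rose from 11.6, 6.67 and 8.29 CPM in siNT to 27.1 and 26.9 CPM in siNRP1#5 (log2 1.61, adjusted p = 0.0366). CD274 lost the threshold in each of the 5 fits that leave out 1 of these samples, in which 0 members of the list were higher. The number that fell was 10 without siNRP1#5 replicate 2 and 3 without siNRP1#5 replicate 3.

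Calls of inflammatory genes depended on siNT replicate 2. Of 18 cytokine and chemokine genes 5 fell, with a median of -1.67, and of 12 NF-kB feedback genes 5 fell, with a median of -1.23, beside 8.89% of all genes. Without siNT replicate 2 the counts were 0 and 3, and without siNRP1#5 replicate 3 they were 0 and 2. The cytokine count was 3 without siNT replicate 1 and 8 without siNT replicate 3. TNFAIP3, an inhibitor of NF-kB signalling, was at 62.4, 89.2 and 40.7 CPM in siNT and at 25.1 and 12.1 CPM in siNRP1#5 (log2 -1.79), so the groups did not overlap.

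Of 24 genes of DNA replication, 9 rose, 1 fell and 14 did not pass, with a median of 1.04, beside 9.0% of all genes called higher. MCM6, of the replicative helicase, was at 44.9, 54.6 and 69.9 CPM in siNT and at 150 and 175 CPM in siNRP1#5, with a log2 change of 1.53 (SE 0.23, adjusted p = 0.000814). Both siNRP1#5 samples were above all siNT samples. MCM2, of the same complex, changed by 1.44 and RFC3, of the clamp loader, by 1.60, whereas MCM7, of the same helicase, fell with -1.20, from 179, 328 and 311 CPM to 122 and 116 CPM. Without siNRP1#5 replicate 3, 3 of the list rose, and without siNT replicate 1, 5 rose. None of 24 mitotic genes passed in either direction, with a median of 0.34. That 0 depended on the setting: 5 were higher with the replicate number as a block and 1 with DESeq2. Without the filter on low counts 6 were higher and 1 lower.

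Of 12 heat shock chaperones 9 rose and none fell, with a median of 0.91, beside 9.0% of all genes called higher. HSP90AA1, a main cytosolic chaperone, was at 599, 300.5 and 1004 CPM in siNT and at 3174 and 1600 CPM in siNRP1#5 (log2 1.91, SE 0.42, adjusted p = 0.00662). HSPA8, the constitutive HSP70, changed by 1.58, HSPE1, a mitochondrial co-chaperone, by 1.23, and HSPH1 by 1.22. Their siNRP1#5 samples lay above all siNT samples. The count was 4, 5, 4 and 5 without siNRP1#5 replicate 2, siNRP1#5 replicate 3, siNT replicate 1 or siNT replicate 2. HSP90AA1 missed the threshold without siNRP1#5 replicate 2 (1.31), HSPE1 without that sample (1.06) or siNT replicate 1 (1.08), and HSPH1 in all of those 4 fits (0.97 to 1.28).

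Among 13 genes of RNA interference itself, 3 rose and 2 fell, beside 9.0% and 8.89% of all genes. AGO1, an Argonaute protein, was at 41.3, 26.3 and 39.96 CPM in siNT and at 9.97 and 10.1 CPM in siNRP1#5 (log2 -1.84, adjusted p = 0.000842). DICER1, which cuts microRNA precursors, changed by -1.43, and TARBP2, AGO2 and DGCR8 by 1.22, 1.16 and 0.98. The AGO1 groups did not overlap, nor did those of AGO2, at 34.6, 27.1 and 38.0 CPM in siNT and 65.0 and 84.0 CPM in siNRP1#5. Without siNRP1#5 replicate 3, 1 gene of the list rose, AGO2 was at 0.96 and DICER1 at -1.11, neither past the threshold.

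**Figure D4:**
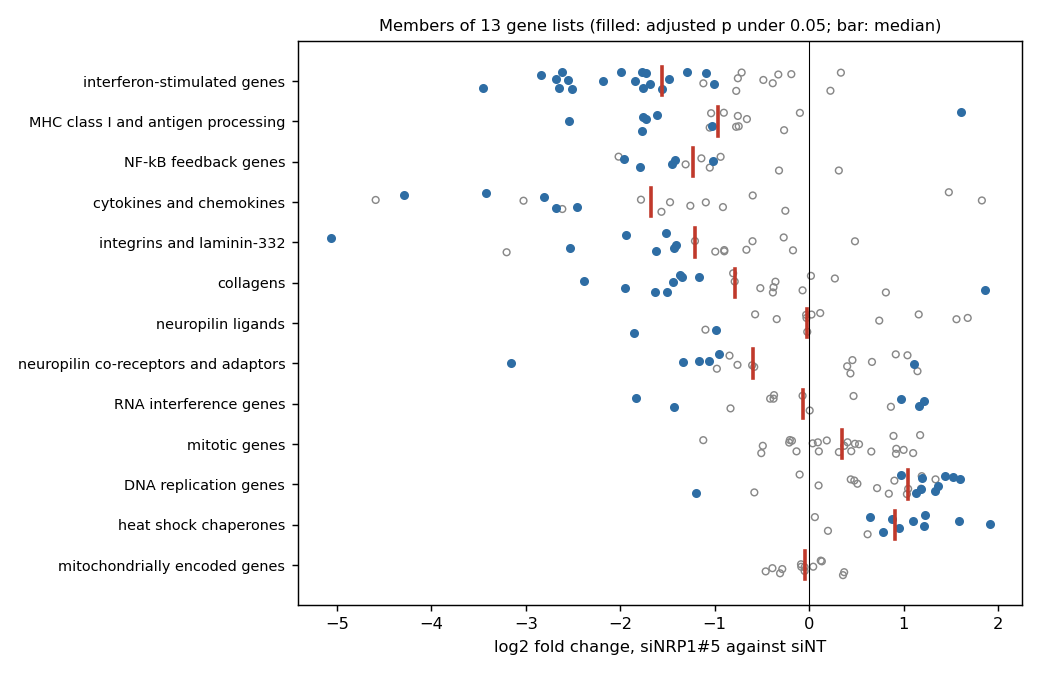
Log2 fold change of siNRP1#5 over siNT for the members of each gene list, one point per gene with genes past the threshold filled and the median as a bar, for 13 of the lists. Medians of the interferon-stimulated, integrin and collagen lists lie below 0, and those of DNA replication genes and chaperones above.

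The counts of these lists fell with fewer groups in the fit. With the 5 samples alone, 2 interferon-stimulated, 2 integrin and laminin and 1 co-receptor genes passed as lower, and 0 members of the other lists described here. With the siRNA samples alone, 13 interferon-stimulated, 5 integrin and laminin, 5 collagen, 3 antigen processing, 2 NF-kB feedback, 2 co-receptor, 1 ligand and 0 cytokine genes fell, and 3 DNA replication genes and 3 chaperones rose.

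The comparison of siNRP1#5 with siNRP1#3 asked which changes differ between the siRNAs. Tested directly, 5967 of 20067 genes differed (29.7%), with 3208 higher (16%) and 2759 lower (13.7%) in siNRP1#5, and 3401 in a fit of these samples alone. ITGB4, whose siNRP1#3 change against the shared siNT samples was -0.14, differed between the siRNAs (adjusted p = 0.00037), as did ATF6B (-0.46, adjusted p = 6.4e-06) and NES (-0.37, adjusted p = 3.1e-05). TGFBR2 changed by -0.99 with siNRP1#3 and differed as well (adjusted p = 0.00024). For TAGLN, at 4.90 with siNRP1#3, and DICER1, at -1.68, no difference passed (adjusted p = 0.63 and 0.59). Of the DNA replication genes 16 were higher than with siNRP1#3, and of 21 ATF4 and unfolded protein genes, none of which passed against siNT, 12 were higher.

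The hairpin with the same targeting sequence gave a comparison that shares no sample. The replicates of the hairpin and of its control were successive cell passages, which the test treats as independent. In shNRP1#5 against shNT, 1192 genes passed (5.94%; 651 higher, 3.24%, and 541 lower, 2.7%). Of the 1806 genes higher with siNRP1#5, 166 (9.19%) were higher with shNRP1#5, which is 25.5% of the hairpin's higher genes. Of the 1784 lower genes, 268 (15%) were lower, 49.5% of the hairpin's lower genes, and 16 genes passed in opposite directions. TGFBR2 changed by -3.04 with the hairpin, NES by 4.31, ITGB4 by -2.37, ATF6B by -1.39 and CLDN4 by 4.06, each past the threshold. Of the 29 interferon-stimulated genes 6 fell with the hairpin, and of 16 antigen processing genes 5, beside 2.7% of all genes. In other lists few members passed with the hairpin, where 3.24% of all genes were higher and 2.7% lower. Such counts in short lists say little. Of 24 DNA replication genes 0 rose and 1 fell with the hairpin, and of 12 chaperones 0 rose and 0 fell. Their hairpin medians were 0.07 and -0.22. Of 17 integrin and laminin genes 2 fell, with a median of -0.0018, and of 19 collagen genes 2 rose and 1 fell. The difference between the effects, tested as an interaction, passed for 503 genes (2.51%). siRNA and hairpin samples differ at once in delivery, selection and harvest time, which cannot be told apart here. The interaction count was 51 without shNT replicate 1 and 939 without shNRP1#5 replicate 3, with 102 without siNT replicate 1, 109 and 160 without shNRP1#5 replicates 1 and 2, 93 without shNT replicate 3, 899 without siNT replicate 2, and 921 without siNRP1#5 replicate 3.

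The same siRNA in the other lines also shares no sample. In MDA-MB-231, another claudin-low line, 5518 of 18800 genes passed (29.4%; 14.4% higher and 14.9% lower), and 745 of the genes higher in SUM159PT were higher there (43.4% of those tested in both, and 29.3% of its own) and 814 lower (52.3% and 31.3%), with 39 in opposite directions. In HS578T 3667 of 19661 passed (18.7%; 10.1% higher and 8.53% lower), with 388 higher in both (22.1% and 21%), 390 lower in both (24.6% and 26%) and 140 opposite. The HS578T values carry a limit: 15 genes found in MDA-MB-231 controls and not in HS578T controls were at 8.51% to 15.5% of the MDA-MB-231 level in the HS578T siNRP1#5 samples and at 0.532% to 1.09% in its siNT samples. Their part in the result was not tested. In MDA-MB-231, of 29 interferon-stimulated genes 3 rose and 8 fell, and of 16 antigen processing genes 1 rose and 8 fell. Of 24 DNA replication genes there 0 rose and 6 fell, and of 12 chaperones 1 rose and 2 fell. Of 16 integrin and laminin genes 3 rose and 2 fell, and of 19 collagen genes 3 rose and 5 fell. The shares over all its genes were 14.4% higher and 14.9% lower.

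Genes called in the same direction with siNRP1#5 in SUM159PT, with shNRP1#5 in SUM159PT and with siNRP1#5 in MDA-MB-231 numbered 252, of which 86 were higher and 166 lower. The count was 131 without shNRP1#5 replicate 2, 150 without shNT replicate 1 and 164 without shNT replicate 2. The higher genes with the largest changes included NES, EXOC3L2, H19, EPHB3, a receptor tyrosine kinase, and PLCB2, a phospholipase. LIN28A, an RNA-binding protein of stem cells, had 0 counts in the siNT samples together and 144 in the siNRP1#5 samples, at least 74.0-fold higher by a floor of 3 counts over the siNT group, with the 144 counts taken as measured. CD248, a glycoprotein of pericytes and stroma, had 1 and 261 counts, a ratio of 402.5 (95% interval 71.6 to 15960, counting error only). Its siNRP1#5 levels were 0.127 and 5.10 CPM, and without siNRP1#5 replicate 3 CD248 (log2 3.60) and PLCB2 (log2 2.92) missed the threshold. The lower genes with the largest changes included ITGB4, ATF6B, CEMIP, RNASE4, CD68, HFE, which regulates iron uptake, and CROT, a peroxisomal carnitine acyltransferase. HFE was at 17.1, 18.5 and 23.5 CPM in siNT and at 1.02 and 2.02 CPM in siNRP1#5, and CROT at 10.99, 5.30 and 14.98 CPM against 0.667 and 1.01 CPM. Both had siNRP1#5 samples below all siNT samples, with log2 changes of -3.68 and -3.61.

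Of the 10 lower genes named for all 3 comparisons, 9 had an annotated 3′ UTR and 5 of these hold in it the 7 bases that pair with bases 2 to 8 of the antisense strand. Of the 12 genes named for the largest falls 2 hold them, and of 11 named for the largest rises with a UTR 0. Among lower genes described by list, EGFR, SEMA3C, CD44, ITGB3, COL4A2, HLA-E, AGO1 and MCM7 hold them too. Others, such as IGF1R, FN1, STAT2, OAS1, COL7A1 and DICER1, do not, and HSPH1, which rose, does. The windows below were chosen among genes that hold the match and are lower in all 3 comparisons. They are read from GRCh38 on the strand of the mRNA, and the capitals mark GCACTTA. The windows come from ITGB4 (chr17:75757779-75757808, plus strand), ATF6B (chr6:32115592-32115621, minus strand), HFE (chr6:26095070-26095099, plus strand), CROT (chr7:87398652-87398681, plus strand) and TGFBR2 (chr3:30692500-30692529, plus strand).
ITGB4: gcctttgttctGCACTTAataaatggtttt
ATF6B: gtgggggttaaGCACTTAtttgaggtgggg
HFE: ggatgataaaaGCACTTActtcgtgtccga
CROT: tcatctattaaGCACTTAccaaaacatatc
TGFBR2: atctttcccctGCACTTAtgttactattct

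Over all genes this match went with lower values. Among 14068 tested genes with an annotated 3′ UTR of at least 30 bases (GENCODE 44), 1285 (9.13%) held GCACTTA on the mRNA strand, searched in each gene's canonical transcript. The median log2 fold change was -0.45 for genes with the match and 0.08 for those without. Of genes with it 26.9% were called lower and 3.81% higher, against 8.90% and 11.8% of genes without. Of called lower genes 23.3% held it and of called higher genes 3.15%. By UTR length, in 3 groups of near-equal size, the medians with and without the match were -1.06 and 0.13 in the short, -0.67 and 0.10 in the middle and -0.35 and 0.01 in the long group, in which 1.41%, 5.84% and 20.2% of genes held the match. Genes with 1 match had a median of -0.43 (1144 genes) and those with at least 2 of -0.64 (141 genes).

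The pattern was read in single samples too. Centred on the mean of the siNT samples, the median of genes with the match minus that of genes without was -0.49 and -0.52 in the siNRP1#5 samples and 0.14, -0.21 and 0.07 in the siNT samples. Both siNRP1#5 samples lay below all siNT samples, of which replicate 2 was the lowest. The siNRP1#3 samples were at 0.04, -0.02 and 0.05. In shNRP1#5, centred on shNT, the values were -0.18, -0.26 and -0.12, against -0.02, -0.05 and 0.07 in shNT.

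In the other comparisons the medians with and without the match were -0.49 and 0.04 for siNRP1#5 in MDA-MB-231, where 48.7% and 13.9% of genes were called lower, and -0.18 and 0.00 for shNRP1#5 in SUM159PT, where 8.56% and 3.12% were. For siNRP1#5 in HS578T they were 0.01 and 0.10 (12.4% and 8.01%), and by UTR length -0.51 and -0.04 in the short, -0.24 and 0.12 in the middle and 0.10 and 0.26 in the long group, each lower with the match. They were -0.02 and -0.04 for siNRP1#3 in SUM159PT, which shares the siNT samples (8.02% and 6.81%). Of the genes lower in all 3 comparisons named above, 78 of 161 with a UTR held the match (48.4%), and of the higher genes 1 of 74 (1.35%). The match was chosen after the values were seen and is given as a description, with no test. A match of these letters is not shown to be a site that the siRNA acts on, and its part in the changes was not tested.

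**Figure D5:**
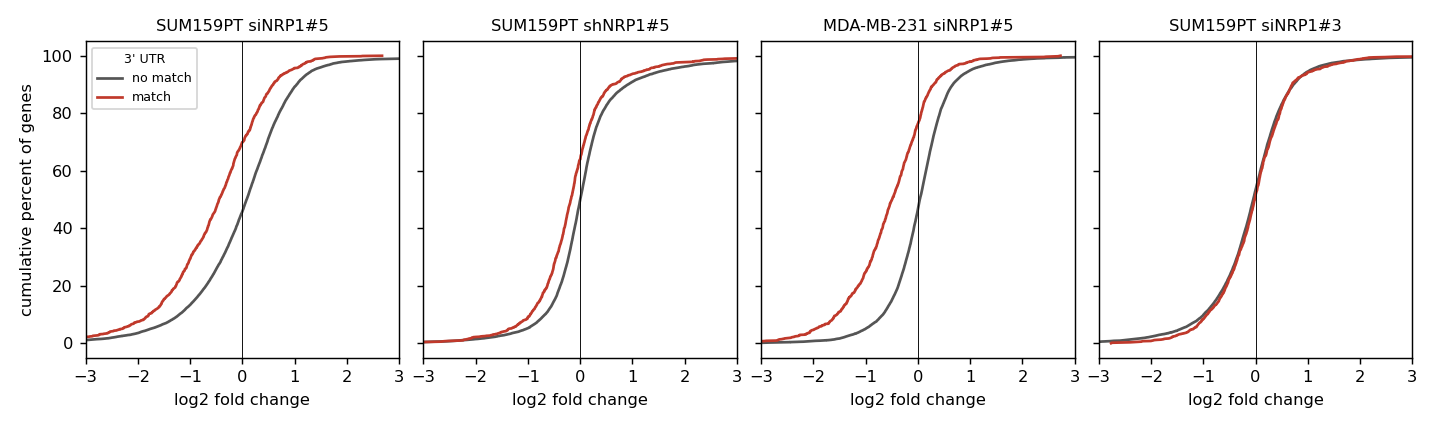
Cumulative share of genes by log2 fold change, for genes with and without GCACTTA in the 3′ UTR, in the comparisons named in the panels. The curve of genes with the match lies to the left of the other for siNRP1#5 in SUM159PT and MDA-MB-231, and the curves for siNRP1#3 nearly coincide.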

How the data were processed

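Expected counts and TPM per gene, and TPM and isoform percentages per transcript, were used as deposited. The authors trimmed reads with Trim Galore 0.6.5, checked them with FastQC 0.11.9, aligned them with STAR 2.7.2b to GRCh38 and obtained expected counts (estimated counts per gene, not whole numbers), TPM (scaled for transcript length and depth) and the percent of each gene's output per isoform with RSEM 1.3.3. The tables hold 78894 genes and 387954 transcripts.

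Expected counts were rounded. Genes were filtered by filterByExpr over the 17 SUM159PT samples, scaled by TMM, and fitted with edgeR 4.0.16 (R 4.3.3) as 6 group means with a quasi-likelihood test, one fit per cell line. P-values were adjusted by Benjamini and Hochberg over all genes tested, with a threshold of 0.05. Standard errors are the log2 fold change divided by the square root of F. CPM are TMM-scaled. Depth was 39908435 to 59470456 counts in the 5 samples, and intervals of count ratios cover counting error only. Other lines were fitted in the same way, and the numbers of genes called are not comparable between lines of different spread. NRP1 transcripts were summed as transmembrane or soluble forms and tested by exact permutation on log2(TPM + 0.1). The genes named are NRP1, the 12 largest rises and 12 largest falls past the threshold with at least 5 CPM in the higher group, up to 4 called members of each of 33 gene lists, and the 10 largest in each direction called in 3 comparisons; some items these rules name are not reported here. The members, the lists and the rules were chosen with earlier results of these data known. The 3′ UTR match was added after the values were seen, and was searched in GENCODE 44 transcripts on GRCh38 on the strand of the mRNA. Scripts were tested on simulated data. Alternatives were DESeq2 1.42.0, no filter, fewer groups in the fit, a replicate block, and leaving out each sample; those leaving out siNRP1#3 and shRNA samples, and those for the gene lists, the genes called in 3 comparisons and the match, were chosen after seeing the data. Figures were drawn with matplotlib 3.10.9. The paper names a later annotation release than GENCODE 44 for its counts. The UTRs were thus searched in another release than the one the genes were counted on.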

Additional observations from a re-analysis of the deposited data

Results flagged for a closer look

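Of the 123 genes named by rule, 23 had effects of siNRP1#5 and shNRP1#5 in SUM159PT that differed in the interaction test of edgeR (adjusted p under 0.05). Of all 20067 genes tested 503 did (2.51%), and 387 of these were called in siNRP1#5 against siNT. The named genes were chosen among such calls, and that effect is part of the difference tested, so the shares are not comparable. siRNA and hairpin samples differ in delivery, selection and harvest time together, and the part of each was not tested. Values are the siRNA effect minus the hairpin effect on the log2 scale.

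For matrix and adhesion genes the differences were -6.48 (COL1A2), -5.89 (FAT2), -3.11 (COL7A1), -2.10 (COL4A5), -1.88 (ITGB3), -1.81 (FN1) and -1.63 (CD44). COL1A2, which rose with both, changed by 1.86 with siNRP1#5 and 8.34 with the hairpin. FN1, CD44 and COL4A5 fell with siNRP1#5 and had hairpin values of 0.06, 0.02 and 0.15. In antigen processing, interferon and NF-kB genes the differences were -2.18 for STAT2, -1.85 for TAPBP, -1.45 for ERAP1 and -1.92 for TNFAIP3. Among replication, cycle and metabolic genes they were 1.56 for MCM2, 1.47 for MCM6, 1.23 for CCND3, a cyclin of G1, and 1.44 for ENO1, a glycolytic enzyme, all of which rose with siNRP1#5. NRP1 differed by -2.01, so the siRNA left less NRP1 than the hairpin did relative to its own control, and its partners SEMA3C and GIPC1 by -1.87 and 0.91. The remaining differences were -4.87 for KCNH2, which rose with both, -2.74 for MDM2, the ubiquitin ligase of p53, which fell with siNRP1#5 and rose with the hairpin (0.94), -2.45 for ATF6B, -2.01 for HFE and -1.51 for LAMP2, a lysosomal membrane protein.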

How the results depend on the processing

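Of 122 named genes other than NRP1, 120 kept their direction in every alternative run, and 56 kept direction and threshold in all but the fit of only these 2 groups, in which 20 of 119 stayed past the threshold. The reversals were CDH5 (-1.04 without siNRP1#5 replicate 3, 4.15 without replicate 2) and EGLN3 (-0.19 and 2.75). The count of 3590 was 59 in the fit of the 2 groups, 1369 in that of siRNA samples, and 2200 (without siNT replicate 1) to 3459 with 1 sample left out. Against siNRP1#3 it was 3401 with only those groups and 3564 with siRNA samples. The interaction count was 1545 with DESeq2, 1457 without the filter and 51 to 939 with 1 sample left out. The genes shared with shNRP1#5 were 671 and 734 under those settings, and those called in 3 comparisons 389 and 401, and 131 to 295 with 1 sample left out. With a pseudocount of 1 TPM the transmembrane and soluble NRP1 differences were -3.97 and -2.32. NRP1 stayed between -4.84 and -3.97, and the difference of the 3′ UTR match between -0.63 and -0.45. Without siNRP1#5 replicate 2 or 3 the median of all genes moved to -0.10 or -0.12. Without the filter 16 DNA replication genes and 10 cholesterol synthesis genes rose, and 13 cytokine, 11 integrin and laminin and 10 NF-kB feedback genes fell. Causes were not tested. Fits of fewer samples have fewer degrees of freedom, and the filter, the scaling and the estimate of spread were also redone in each.

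With the replicate number as a block, 4293 genes were called, the interaction count was 1332, and the shared counts were 706 for shNRP1#5, 1383 for HS578T and 414 for 3 comparisons. siNRP1#5 and siNT share 2 numbers and the labels name no shared batch. The change from replicate 2 to 3 correlated at 0.271 between siNRP1#5 and siNT, at 0.34 between siNRP1#5 and siNRP1#3 and at 0.403 between siNT and siNRP1#3, a hint from the data, not the design, that the numbers may mark something shared. 2 siNRP1#5 samples limit every SE given.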

Other observations

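Several further gene lists are given here, beside 9.0% of all genes called higher and 8.89% lower. Of 17 TGF-beta and SMAD targets 4 fell and 1 rose, and 2 fell without siNT replicate 1. Of 8 tested stem cell markers 2 fell and 0 rose. Of 18 tested genes of matrix proteases and the plasminogen system 3 fell and 1 rose. Of 23 cholesterol synthesis genes 2 rose, a share near that over all genes, with a median of 0.75. The count was 12 without siNRP1#5 replicate 2, 0 without siNRP1#5 replicate 3, 0, 1 and 4 without siNT replicates 1, 2 and 3, and 1 fell without siNRP1#5 replicate 3. Of 18 p53 targets 2 rose and 4 fell, MDM2 among the latter at 41.6, 27.8 and 37.1 CPM in siNT and 8.99 and 11.4 CPM in siNRP1#5 (log2 -1.80). Of 20 lysosome and autophagy genes 3 fell, among them LAMP2, at 184, 145 and 156 CPM in siNT and 61.1 and 59.0 CPM in siNRP1#5 (log2 -1.43). For both genes the siNRP1#5 samples lay below all siNT samples. The p53 count of rises was 1 without siNRP1#5 replicate 2 or siNT replicate 1 or 3. The lysosome count was 1 without siNT replicate 1 and 5 without siNT replicate 3. Of 24 glycolysis and hypoxia genes 3 rose, among them ENO1 (log2 1.06), and 2 fell. Without siNT replicate 1, 1 rose, and without siNRP1#5 replicate 3, siNT replicate 1 or siNT replicate 2, 1 fell. None of 13 mitochondrially encoded genes passed, with a median of -0.05.

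Not all markers of other cell types were low. PTPRC, a leukocyte gene, was at 3.99, 0.47 and 4.28 TPM in siNT and at 0.98 and 4.68 TPM in siNRP1#5. CDH5, an endothelial cadherin, was called higher (log2 3.23), and its direction was reversed without siNRP1#5 replicate 3. PECAM1, another endothelial marker, was at 14.4, 9.21 and 15.9 TPM in siNT and at 3.35 and 4.55 TPM in siNRP1#5, and CD3E was at 0 in all samples.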
